A study of Mus musculus with 4 samples.

Results

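In microglia, the resident macrophages of the brain, 34 genes of the lysosome were examined. They were chosen by function, with earlier results of these data known. The fixed list holds lysosomal enzymes, their cofactors, lysosomal membrane proteins, proton pump subunits and a regulator of lysosomal genes. All 34 stood among the 20308 genes in any deposited table, and all 34 were among the 15097 genes that passed the filter on low counts. The study sequenced RNA of microglia from mice at postnatal day 11, with 2 libraries labelled Pd1fl/fl (replicates 1 and 2) and 2 labelled Pd1cKO-Cx3 (replicates 2 and 3). In Pd1fl/fl mice, which served as controls, recombination sites flank Pdcd1, the gene of the inhibitory receptor PD-1, and in the second group this gene is labelled as conditionally knocked out. The labels name no Cre driver beyond "Cx3", and they leave unsaid whether controls carried it and whether each replicate was a separate animal. The p-values therefore measure the spread between these libraries, which may be technical.

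Lysosomes are acidic organelles in which hydrolases break down material that a cell takes up or recycles. A proton pump in their membrane keeps them acidic, heavily glycosylated membrane proteins line them, and small cofactor proteins present lipids to the enzymes. Microglia clear dying cells, myelin debris and synapses in the developing brain and rely on this machinery. Inherited loss of many of these genes causes lysosomal storage diseases, several of which damage the nervous system.

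Total counts ranged from 14258420 to 15908954 per library, with 16763 to 18431 genes counted. Pdcd1 itself went against the labels, with 0 and 43 counts in the controls and 179 and 154 counts in the Pd1cKO-Cx3-labelled libraries. Its difference did not pass over all genes (edgeR adjusted p = 0.695), and counts over a whole gene do not show whether part of it is missing. The cause was not tested, so every direction below follows labels that this gene did not bear out. Csf1r, a receptor that microglia need to survive, had 17175 and 16921 CPM (counts scaled to the library total) in the controls. In the Pd1cKO-Cx3-labelled libraries it had 16885 and 15552 CPM. P2ry12, the next most abundant microglial marker, had 14866 and 15129 CPM in the controls against 11312 and 10691 CPM. The sum over 8 microglial markers was 60053 and 58472 CPM in the controls and 46533 and 43980 CPM in the Pd1cKO-Cx3-labelled libraries, with none at 0. Border-associated macrophages also hold many lysosomes. The sum over 10 of their markers was 1287 and 1248 CPM against 1553 and 1443 CPM, again with none at 0. These sums did not overlap between the groups, while the leading genes of the list, Stab1 and Mrc1, overlapped. Most of the gap between the sums therefore lay in the other markers of the list, which are not given singly. Stab1 had 840 and 703 CPM against 831 and 730 CPM, and Mrc1 310 and 429 CPM against 404 and 379 CPM. Endothelial markers summed to 72.4 to 105 CPM in the controls and 117 to 157 CPM in the other group. Their leading gene Pecam1 overlapped between the groups, at 40.5 and 31.4 CPM against 25.5 and 32.3 CPM. Cldn5, the next, did not, at 24.4 and 16.4 CPM against 47.3 and 27.8 CPM. Mural and fibroblast markers summed to 54.1 to 104 CPM and 186 to 187 CPM. Monocyte and neutrophil markers summed to 29.0 to 47.7 CPM and 79.2 to 89.6 CPM. Of the leading genes of this list, Plac8 had 16.8 and 17.3 CPM against 71.1 and 67.3 CPM. Ccr2 overlapped between the groups, at 19.5 and 4.85 CPM against 11.2 and 1.61 CPM. Lymphocyte markers, of which 4 to 8 of 9 were at 0, summed to 66.9 to 87.6 CPM in the controls and 62.8 to 82.2 CPM in the other group. Astrocyte, neuronal and oligodendrocyte marker sums overlapped between the groups, and mitochondrial genes took 1.02% to 1.23% of the counts in the controls and 1.48% to 1.60% in the other group. The part of other cells and of RNA quality in the values below was not tested, and in RNA from pooled cells fewer cells of a type and less RNA per cell cannot be told apart.

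Per kilobase of annotated exon, the levels of the 34 genes spanned a wide range. Lgmn, which encodes the asparagine-specific protease legumain, was highest at a mean of 4871 CPM per kilobase over the 4 libraries. Psap, the gene of prosaposin, followed at 2808 CPM per kilobase. Laptm5, a lysosomal membrane protein gene of blood-forming lineages, stood at 1270, and Grn, the gene of progranulin, at 1011 CPM per kilobase. These 4 therefore lay above every other member, of which Cd68, a macrophage membrane glycoprotein gene, came next at 752 CPM per kilobase. At the low end were Sgsh, the gene of heparan N-sulfatase, at 0.464, Galc, the gene of galactosylceramidase, at 1.30, and Gla, the gene of alpha-galactosidase A, at 2.79 CPM per kilobase. Tfeb, the gene of a transcription factor that activates lysosomal genes, came next from the bottom at 3.32 CPM per kilobase. Exon lengths are the union over all annotated transcripts, 14879 bases for Galc and 1257 bases for Cd68, so a gene with a long rarely used exon appears low on this scale.

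**Figure D1:**
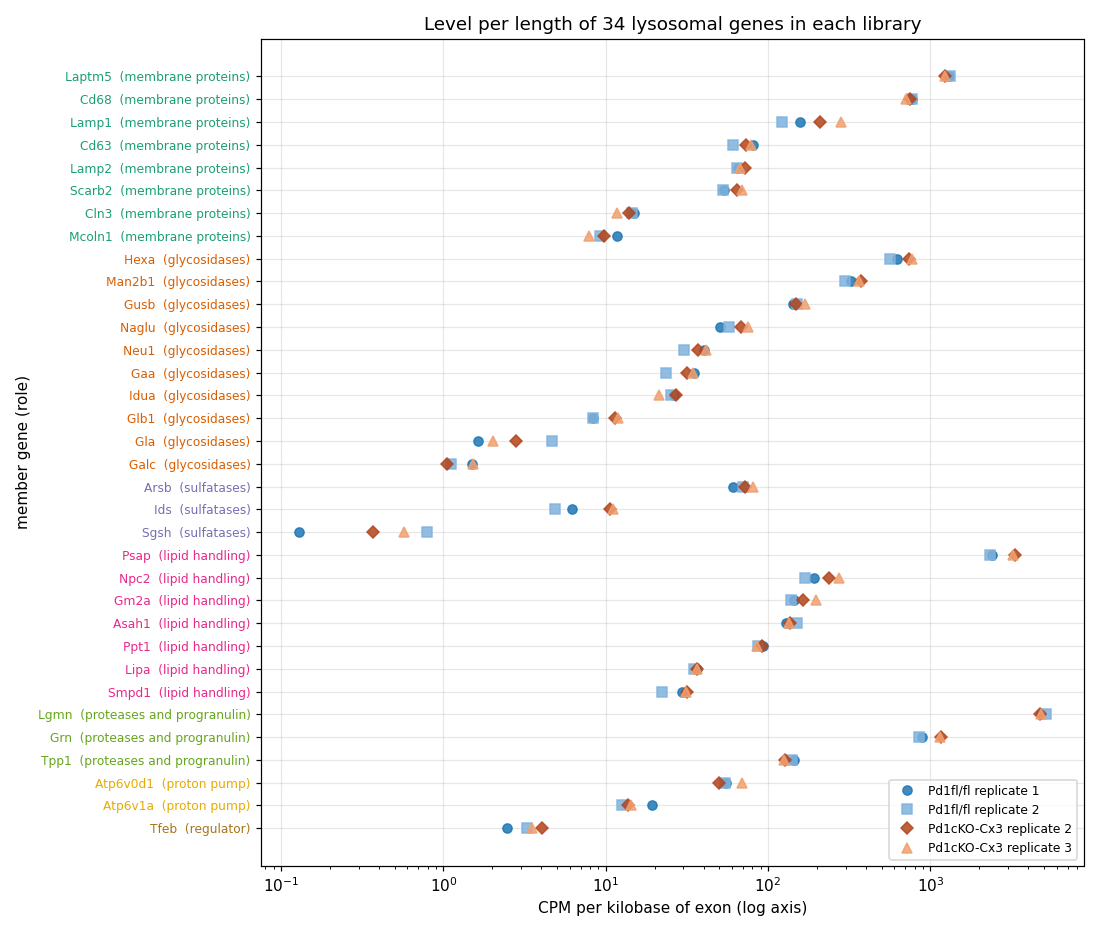
Level of each of the 34 genes in each library, in CPM per kilobase of annotated exon on a log axis, ordered by role. Points are single libraries, with the controls and the libraries labelled Pd1cKO-Cx3 in separate colours. The levels run from under 1 for Sgsh to 4871 on average for Lgmn.

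In the counts as a whole, the 34 genes took 3.78% and 3.77% in Pd1fl/fl replicates 1 and 2. In the libraries labelled Pd1cKO-Cx3 they took 4.20% and 4.25%. The exact (Clopper-Pearson) 95% intervals, 3.76% to 3.79% over both controls and 4.19% to 4.26% over the other group, cover counting error only. The shares thus did not overlap between the groups. Without Lgmn, Psap and Laptm5, the 3 most abundant members by CPM, they were 1.51% and 1.43% against 1.73% and 1.79%. Psap alone took 0.656% and 0.636% against 0.908% and 0.882%. The lipid-handling genes, Psap included, took 0.933% and 0.898% against 1.22% in both libraries of the other group. Glycosidases took 0.510% and 0.475% against 0.579% and 0.591%. The membrane proteins did not separate the groups, at 0.774% and 0.762% against 0.766% and 0.780%.

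Many lysosomal genes carry in their promoters a short palindrome that TFEB and related factors are known to bind. RefSeq promoter windows on GRCm38.p6, from 250 bases before to 50 bases after each annotated start, were found for 33 of the 34 genes, in 38 windows, and Asah1 had none. The motif searched was CACGTG, which reads the same on both strands, and its longer form TCACGTGA, which contains it and is also its own reverse complement. CACGTG stood in a window of 11 of the 33 genes (33.3%), against 1178 of 10229 genes tested (11.5%), 2187 of 27025 genes in the table (8.09%) and 18 of 70 other lysosomal genes (25.7%). TCACGTGA stood in 5 of the 33 (15.2%), against 220 of the genes tested (2.15%) and 10 of the 70 other lysosomal genes (14.3%). The stretches below are those with more than 1 copy or with the longer form, and that of Naglu, since it and Lamp1 were the genes with the motif whose fold change had an unadjusted p under 0.05. Each is given 5′ to 3′ on the strand of the gene with CACGTG in capitals, and positions count from the transcription start. The stretch of Lamp1 lies at chr8:13159088-13159163 (plus strand) and holds 4 copies, at positions -61, -45, -28 and -15. Those of Mcoln1, at chr8:3500436-3500491 (plus strand), and of Cln3, at chr7:126583340-126583397 (minus strand), hold 2 each, 1 of them in the longer form. Gla, at chrX:134601182-134601244 (minus strand), holds 2 in the longer form. Atp6v0d1, at chr8:105566050-105566079 (minus strand), and Atp6v1a, at chr16:44139373-44139402 (minus strand), hold 1 each in the longer form, and Naglu, at chr11:101070009-101070038 (plus strand), holds 1 in the short form. The windows of Cln3, Atp6v1a, Gla, Naglu and Mcoln1 belong to starts inside the annotated gene, that of Cln3 farthest inside. For 30 of the 38 windows the first 30 bases after the start stood in a GENCODE transcript of the gene. The window of Atp6v0d1 was not among these.
Lamp1: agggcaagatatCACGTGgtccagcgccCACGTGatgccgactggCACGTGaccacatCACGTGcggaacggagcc
Mcoln1: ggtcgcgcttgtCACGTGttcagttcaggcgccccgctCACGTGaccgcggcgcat
Cln3: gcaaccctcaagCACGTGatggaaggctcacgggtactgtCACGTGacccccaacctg
Gla: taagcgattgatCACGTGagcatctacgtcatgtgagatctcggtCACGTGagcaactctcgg
Atp6v0d1: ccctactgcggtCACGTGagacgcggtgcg
Atp6v1a: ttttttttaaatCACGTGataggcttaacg
Naglu: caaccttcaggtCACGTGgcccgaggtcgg
A match is a description of these letters and says nothing of binding in these cells. The 11 genes with the motif had a median log2 fold change of 0.02 (range -0.40 to 0.80), and 2 of them had an unadjusted p under 0.05. That median is the value of Sgsh, which had 9 to 52 counts and an SE of 1.11. The 22 genes whose windows lacked it had a median of 0.18 (range -0.18 to 0.97), and 8 of them had such a p. Of all genes tested, 4.97% were higher and 3.12% lower at such a p. Genes with and without the motif were not compared by a test.

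**Figure D2:**
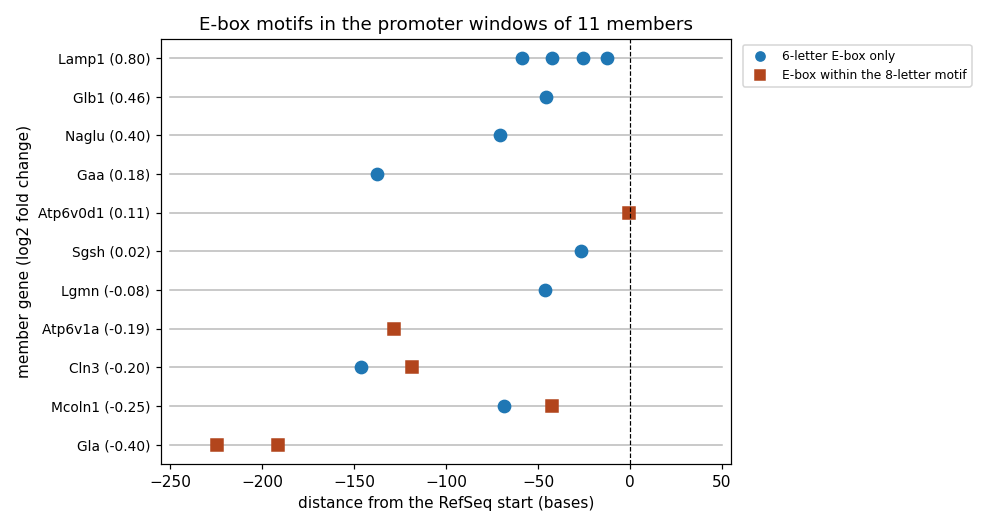
Distance of each CACGTG from the annotated transcription start, in bases, for the 11 genes that hold it, with the longer form TCACGTGA marked separately. Lamp1 holds 4 copies, at positions -61, -45, -28 and -15.

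The comparison of the genotype labels asked how the lysosomal genes differ when PD-1 is labelled as deleted from microglia. It was made with edgeR's quasi-likelihood test over all 15097 genes, and fold changes are log2, the Pd1cKO-Cx3-labelled libraries minus the Pd1fl/fl controls. At an adjusted p under 0.05, edgeR called 0 of the 34 genes, against 6 of all genes tested (0.0397%). At an unadjusted p under 0.05, 10 of the 34 (29.4%) were higher in the Pd1cKO-Cx3-labelled libraries, where 750 of all genes tested (4.97%) were higher. Of the 10, Gm2a, Naglu and Scarb2 missed that p when Pd1fl/fl replicate 1 or replicate 3 of the Pd1cKO-Cx3 label was left out. Without Pd1fl/fl replicate 2, Gm2a, Hexa, Man2b1 and Scarb2 missed it, and Naglu did so without the other group's replicate 2. None of the 34 was lower at that p with all 4 libraries, where 471 of all genes (3.12%) were lower. Among the 3776 genes with a mean of at least 50 CPM, a set chosen after the values were seen, 258 (6.83%) were higher at an unadjusted p under 0.05, and 28 of the 34 genes belong to it, 9 of them among the 10. DESeq2 called 5 of the 34 higher at an adjusted p under 0.05 (14.7%), namely Psap, Grn, Npc2, Lamp1 and Ids, against 178 of all genes tested (1.18%).

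Without a test, 15 of the 34 genes (44.1%) lay above both controls in both libraries labelled Pd1cKO-Cx3, and 21.3% of all genes tested did so. Below both controls lay 5 of the 34 (14.7%), against 18.8% of all genes tested, and the groups overlapped for 14. The median log2 fold change was 0.11 over the 34 genes, 22 of them positive, and 0.0080 over all genes tested. It was 0.17 without Pd1fl/fl replicate 1, 0.23 when replicate 2 of the Pd1cKO-Cx3 label was left out and 0.07 when its replicate 3 was. By role, the median was 0.27 for lipid handling, 0.21 for the 3 sulfatases, 0.16 for the 10 glycosidases, -0.0001 for the 8 membrane proteins, -0.04 for the 2 pump subunits and -0.08 for the proteases with progranulin.

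**Figure D3:**
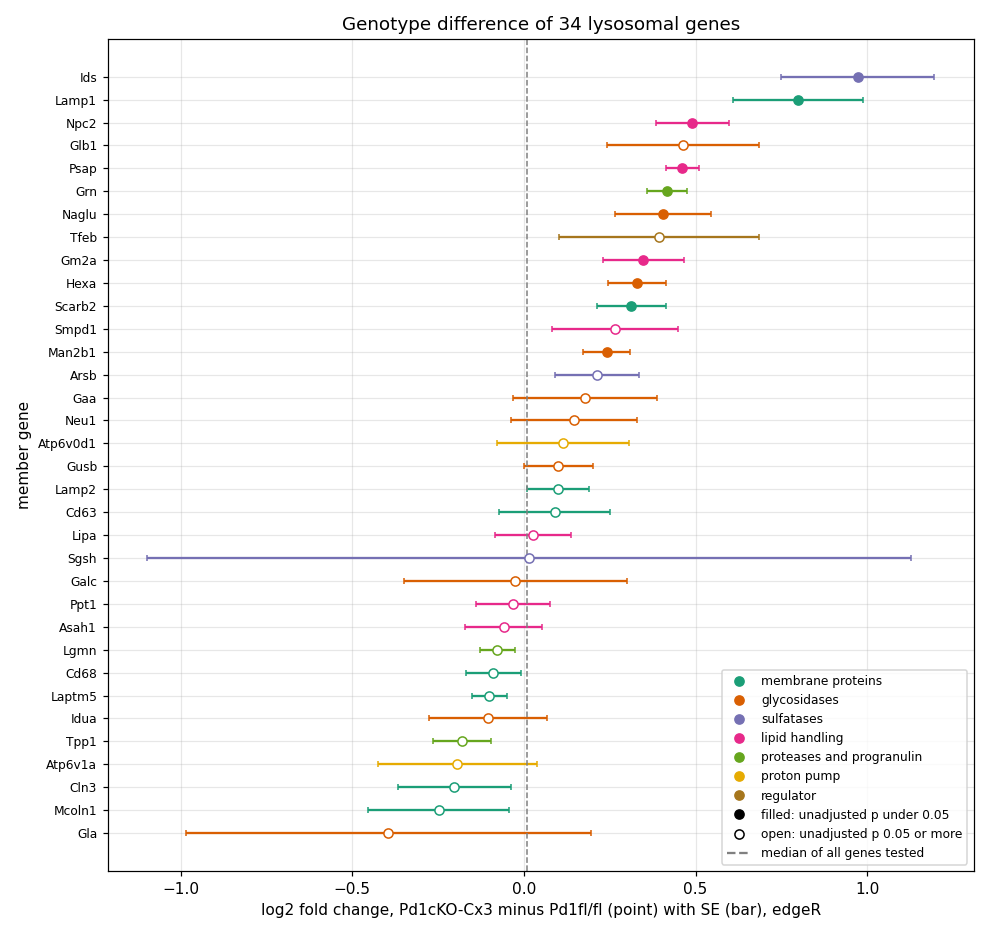
Log2 fold change of each of the 34 genes, Pd1cKO-Cx3-labelled libraries minus controls, with bars of 1 SE from edgeR, ordered by fold change and coloured by role. The 10 genes with an unadjusted p under 0.05 all lie to the right of 0, and none passed at an adjusted p under 0.05.

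**Figure D4:**
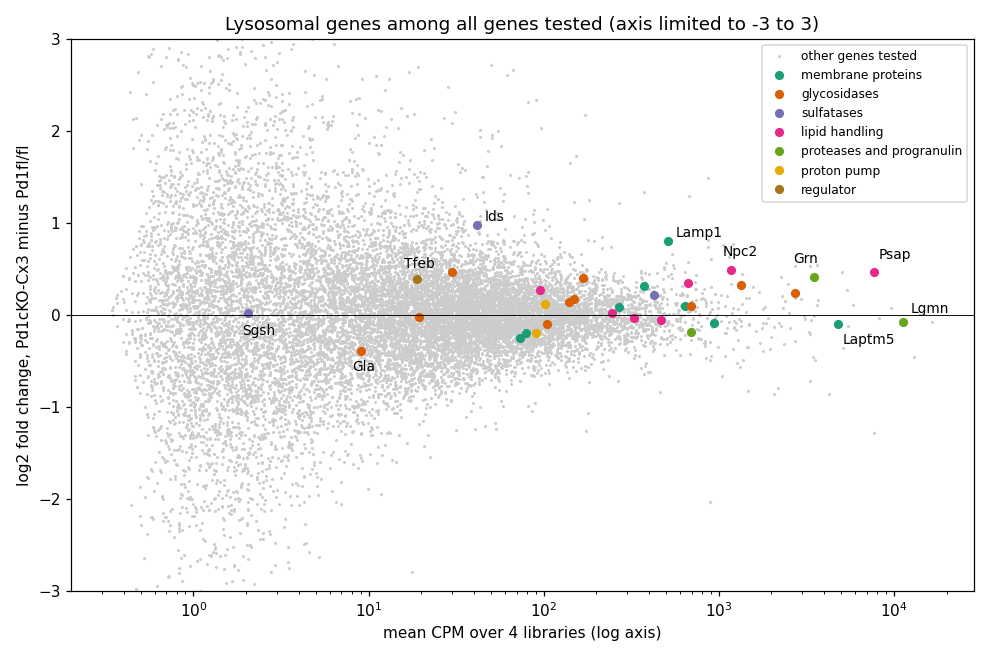
Log2 fold change against mean CPM on a log axis for the 15097 genes tested, with the 34 lysosomal genes marked. Most of the 34 lie at high CPM, where the fold changes of all genes spread least, and the 10 with an unadjusted p under 0.05 lie above 0.

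The lipid-handling proteins held the gene with the smallest p. Psap encodes prosaposin, which is cut into the 4 saposins, cofactors that lift sphingolipids to their hydrolases. It lies on chromosome 10 from 60277627 to 60302597. It had 6563 and 6357 CPM in the controls and 9082 and 8822 CPM in the Pd1cKO-Cx3-labelled libraries, means of 6460 ± 146 and 8952 ± 184 CPM (SD, n = 2). The gap between the groups was many times the gap between libraries of either group, a 1.39-fold difference or 0.46 ± 0.05 on the log2 scale (SE), but it did not pass over all genes (edgeR adjusted p = 0.0959). DESeq2 called it (adjusted p = 2.27e-06), as did edgeR with no filter (adjusted p = 0.0293) and with a minimum of 5 CPM in 2 libraries (adjusted p = 0.0441). Over all alternatives its adjusted p ran from 2.27e-06 to 0.155, with log2 fold changes between 0.44 and 0.49 when a library was left out.

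Npc2 encodes a small protein that hands cholesterol from the lumen to the membrane protein NPC1 (chromosome 12, 84754562 to 84773152). It had 1038 and 919 CPM in the controls and 1288 and 1481 CPM in the Pd1cKO-Cx3-labelled libraries. The groups did not overlap, and the 1.41-fold difference (0.49 ± 0.11 on the log2 scale) missed the threshold in edgeR (adjusted p = 0.446) and met it in DESeq2 (adjusted p = 0.00429). Gm2a, the gene of the GM2 activator that presents that ganglioside to hexosaminidase A (chromosome 11, 55098115 to 55113029), had 598 and 571 CPM against 678 and 818 CPM. Its libraries labelled Pd1cKO-Cx3 differed more from each other than the controls did, and 0.35 ± 0.12 on the log2 scale did not pass (edgeR adjusted p = 0.542). It was 0.22 when replicate 3 of the Pd1cKO-Cx3 label was left out. Smpd1, the gene of acid sphingomyelinase, had 98.4 and 74.5 CPM in the controls and 105 and 104 CPM in the other group, so the groups stood apart by less than the controls differed. The 3 remaining lipid genes overlapped between the groups. Lipa, the gene of acid lipase, which frees cholesterol from its esters, had 236 to 249 CPM in all 4 libraries. Asah1, the gene of acid ceramidase, had 440 to 507 CPM, and Ppt1, whose thioesterase removes palmitate from proteins, had 313 to 341 CPM. An exon of Ppt1 overlaps one of Cap1 on the other strand, which had 3692 to 5336 counts, and the sources used here do not say whether counting used strand.

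Grn, the gene of progranulin, lies on chromosome 11 from 102430315 to 102437048. Progranulin reaches the lysosome partly in complex with prosaposin, is cut there into granulins, and its loss in humans causes a neuronal lipofuscinosis. Grn had 3062 and 2938 CPM in the controls and 4058 and 3996 CPM in the Pd1cKO-Cx3-labelled libraries. Like Psap it separated the groups by far more than the replicates differed, at 1.34-fold and 0.42 ± 0.06 on the log2 scale (edgeR adjusted p = 0.192, DESeq2 adjusted p = 0.000107). The 2 protease genes lay on the other side. Lgmn had 11182 and 11987 CPM against 10933 and 11164 CPM, a gap smaller than that between the controls (log2 fold change -0.08 ± 0.05, edgeR adjusted p = 0.777). Tpp1, the gene of tripeptidyl peptidase, which trims peptides from their amino end, had 744 and 726 CPM against 658 and 646 CPM (log2 fold change -0.18 ± 0.09, edgeR adjusted p = 0.674).

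**Figure D5:**
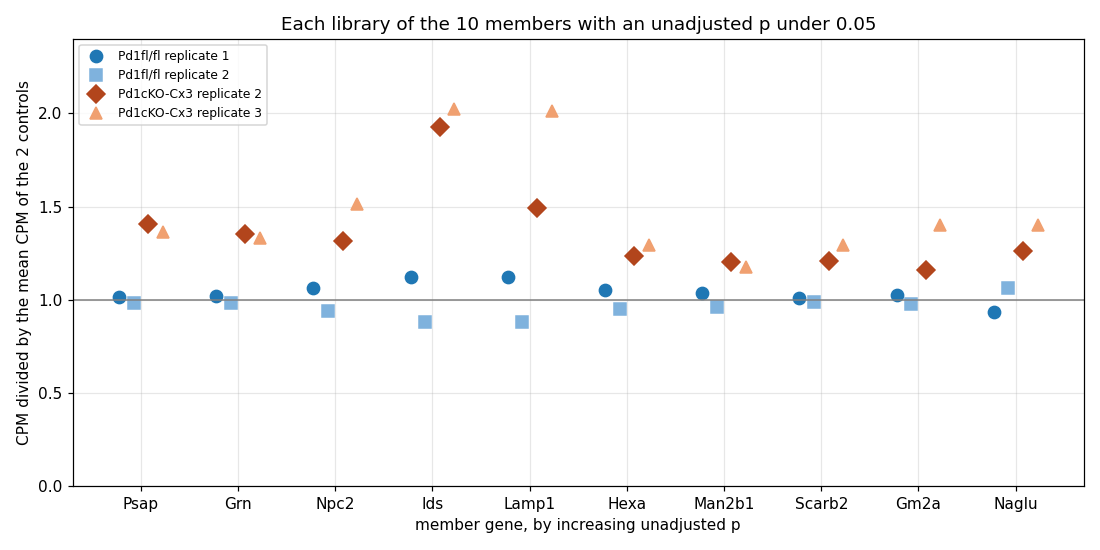
CPM in each library divided by the mean CPM of the controls, for the 10 genes with an unadjusted p under 0.05. Each point is a single library, and the line marks a ratio of 1. For each gene both libraries labelled Pd1cKO-Cx3 lie above both controls.

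Among the 10 glycosidases, which take sugars off glycolipids, glycoproteins and glycans, 3 had an unadjusted p under 0.05, all higher in the Pd1cKO-Cx3-labelled libraries. Over all genes tested, 4.97% were higher and 3.12% lower at that p. Hexa encodes the alpha subunit of hexosaminidase A, which degrades GM2 with the Gm2a protein (chromosome 9, 59539540 to 59565109). It had 1249 and 1130 CPM in the controls and 1467 and 1540 CPM in the other group, 0.33 ± 0.08 on the log2 scale (edgeR adjusted p = 0.506). Man2b1, the gene of acid alpha-mannosidase (chromosome 8, 85083270 to 85098282), had 2590 and 2404 CPM against 3005 and 2934 CPM, 0.24 ± 0.07 on that scale (edgeR adjusted p = 0.527). Naglu, whose enzyme removes N-acetylglucosamine from heparan sulfate (chromosome 11, 101070012 to 101077672), had 134 and 153 CPM against 181 and 201 CPM, 0.40 ± 0.14 on the log2 scale (edgeR adjusted p = 0.547). All 3 separated the groups, and for Naglu the gap between the nearest libraries of the 2 groups was only somewhat wider than that between replicates.

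The other 7 glycosidases gave no p under 0.05. Glb1, the gene of acid beta-galactosidase, had 25.1 and 25.2 CPM in the controls and 34.1 and 35.7 CPM in the Pd1cKO-Cx3-labelled libraries, 0.46 ± 0.22 on the log2 scale (edgeR adjusted p = 0.68). It shares exon sequence with Tmppe on the same strand, which had 430 to 556 counts, so its level is uncertain. The groups overlapped for Gusb (650 to 763 CPM), the beta-glucuronidase gene, for Gaa (112 to 166 CPM), whose enzyme degrades glycogen, and for Neu1 (112 to 155 CPM), the sialidase gene. They also overlapped for Idua (88.8 to 113 CPM), the iduronidase gene, which overlaps Dgkq and Slc26a1 on the other strand. Galc, whose enzyme degrades the myelin lipid galactosylceramide, had 22.3 and 16.6 CPM against 15.7 and 22.7 CPM, so each group held 1 high and 1 low library. Gla had 5.34 and 15.3 CPM in the controls and 9.19 and 6.59 CPM in the other group, with the widest spread between the controls of the 3 X-linked members. Its log2 fold change of -0.40 ± 0.59 (edgeR adjusted p = 0.941) was the lowest of the 34.

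The sulfatases remove sulfate from glycosaminoglycans. Ids encodes iduronate 2-sulfatase (chromosome X, 70343069 to 70365084), and its log2 fold change was the highest of the 34. It had 31.4 and 24.6 CPM in the controls and 53.9 and 56.6 CPM in the Pd1cKO-Cx3-labelled libraries, a 1.97-fold difference. On the log2 scale this was 0.97 ± 0.22, past DESeq2's threshold (adjusted p = 0.0491) and not edgeR's (adjusted p = 0.464). Xist, the RNA of the silenced X chromosome, had 841 CPM in Pd1fl/fl replicate 1 and 0 in the other 3 libraries, and the Y-linked Ddx3y had 0 there and 129 to 133 CPM elsewhere. Without Pd1fl/fl replicate 1, the remaining libraries being alike in these genes, the log2 fold change of Ids was 1.15 (edgeR adjusted p = 0.294). Without Pd1fl/fl replicate 2 it was 0.81. Arsb, the arylsulfatase B gene, had 367 and 425 CPM against 437 and 488 CPM, groups that stood apart by less than the replicates of either differed. Sgsh had 0.566 and 3.50 CPM in the controls, from 9 and 52 counts, and 1.61 and 2.52 CPM in the other group, from 23 and 39 counts. Both of these lay between the controls, and its fold change of 0.02 ± 1.11 on the log2 scale carried the widest error of the 34.

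Among the 8 membrane proteins, 3 genes lay above both controls, 3 lay below both, and for 2 the groups overlapped. Over all genes tested, 21.3% lay above both controls and 18.8% below both. Lamp1 encodes the most used marker of lysosomal membranes (chromosome 8, 13159161 to 13175338). It had 419 and 328 CPM in the controls and 556 and 751 CPM in the Pd1cKO-Cx3-labelled libraries. Replicates differed widely in both groups, yet the groups did not overlap, at 1.75-fold and 0.80 ± 0.19 on the log2 scale (edgeR adjusted p = 0.464, DESeq2 adjusted p = 0.00115). Leaving out a library moved its log2 fold change between 0.58, when replicate 3 of the Pd1cKO-Cx3 label was left out, and 1.003, when its replicate 2 was left out. Scarb2 encodes LIMP-2, the receptor that carries glucocerebrosidase to the lysosome (chromosome 5, 92441314 to 92506833). It had 337 and 330 CPM against 403 and 431 CPM, 0.31 ± 0.10 on the log2 scale (edgeR adjusted p = 0.542), with little spread within either group.

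Lamp2, an X-linked relative of Lamp1 whose protein also serves chaperone-mediated autophagy, had 619 and 614 CPM in the controls and 688 and 641 CPM in the other group. Its difference of 0.10 ± 0.09 on the log2 scale was close to its own error (edgeR adjusted p = 0.871), and it was 0.10 without Pd1fl/fl replicate 1 as well. Below both controls lay 3 of the 8 membrane protein genes, beside 18.8% of all genes tested. Laptm5 had 4920 and 5005 CPM against 4649 and 4665 CPM (log2 fold change -0.10 ± 0.05, edgeR adjusted p = 0.701). Cd68 had 972 and 970 CPM against 943 and 894 CPM, and Cln3, mutated in juvenile neuronal lipofuscinosis, had 85.7 and 83.6 CPM against 80.0 and 68.1 CPM. Neither difference passed (edgeR adjusted p = 0.867 and 0.839). For Cd63, a tetraspanin gene, at 224 to 296 CPM, and Mcoln1, the gene of the calcium channel TRPML1, at 59.9 to 88.4 CPM, the groups overlapped. Exons of Lamp1, Cln3 and Hexa overlap genes on the opposite strand, Grtp1 (22 to 70 counts), Apobr (453 to 681 counts) and Tmem202 (14 to 64 counts), and for each of these partners the libraries labelled Pd1cKO-Cx3 held fewer counts than the controls.

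Neither Tfeb nor the pump subunits passed the test. Tfeb (chromosome 17, 47737030 to 47792419) had 14.02 and 18.4 CPM in the controls and 23.0 and 19.9 CPM in the Pd1cKO-Cx3-labelled libraries. The groups did not overlap, but their nearest libraries lay closer than replicates did, at 0.39 ± 0.29 on the log2 scale (edgeR adjusted p = 0.818). Atp6v1a, the gene of the subunit that splits ATP, had 116 and 75.8 CPM against 82.3 and 86.6 CPM, both inside the range of the controls. Atp6v0d1, a subunit of the part in the membrane, had 98.3 and 97.5 CPM against 89.8 and 123 CPM, one below and one above both controls.

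Other lysosomal genes were set beside the 34, from a list of 96 drawn up by function, with earlier results of these data known. Of these, 94 were in the tables and 92 were tested. None was called by edgeR or by DESeq2 over all genes. At an unadjusted p under 0.05, 4 were higher and 2 lower in the Pd1cKO-Cx3-labelled libraries, where 4.97% and 3.12% of all genes tested were. These counts are no larger than such shares of 92 genes would be. The median log2 fold change over the 92 was -0.03. Above both controls lay 19 of the 92 and below both lay 23, beside 21.3% and 18.8% of all genes tested. Of 25 further lysosomal enzymes 1 had such a p, Naaa, whose amidase degrades fatty acid ethanolamides. It had 116 and 115 CPM against 139 and 158 CPM (log2 fold change 0.35 ± 0.14, edgeR adjusted p = 0.611). Next came Hgsnat, whose enzyme acetylates heparan sulfate, at 30.8 and 14.3 CPM against 35.1 and 50.1 CPM, with the replicates of each group farther apart than the nearest libraries of the 2 groups.

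Of 15 further proton pump genes 2 were higher and 1 lower at an unadjusted p under 0.05, beside the 4.97% and 3.12% of all genes tested. Atp6v1d had 101 and 79.1 CPM in the controls and 135 and 132 CPM in the other group, 0.56 ± 0.17 on the log2 scale, and Atp6v1b2 had 156 and 183 CPM against 221 and 211 CPM. Atp6v0a1 had 323 and 316 CPM against 261 and 273 CPM, -0.27 ± 0.11 on the log2 scale, so subunits of 1 pump lay on both sides. None passed over all genes (edgeR adjusted p = 0.542, 0.606 and 0.606). Of 11 genes of delivery to the lysosome, Nagpa, whose enzyme uncovers the mannose 6-phosphate tag, had 291 and 322 CPM against 426 and 393 CPM (0.41 ± 0.11 on the log2 scale, edgeR adjusted p = 0.527). A pair of sorting adaptor genes lay lower, Gga1 at -0.44 ± 0.17 and Gga3 at -0.58 ± 0.24 on that scale. Among 25 further membrane proteins and transporters and 16 regulators, 0 had an unadjusted p under 0.05. Mfsd8, a membrane protein gene, had 20.2 and 20.1 CPM against 25.9 and 42.7 CPM. The cholesterol transporter gene Npc1, whose protein receives cholesterol from that of Npc2, had 116 and 131 CPM against 101 and 98.0 CPM (-0.33 ± 0.14 on the log2 scale, edgeR adjusted p = 0.652), the opposite side from Npc2. The chloride transporter gene Clcn7 had 81.3 and 76.1 CPM against 96.9 and 101 CPM. Of the 16 regulators, 0 lay above both controls and 7 lay below both, beside 21.3% and 18.8% of all genes tested. Among them Tfec, a relative of Tfeb, had 16.8 and 12.3 CPM against 9.61 and 6.52 CPM. Zkscan3, the gene of a repressor of autophagy genes, had 118 and 108 CPM against 91.2 and 91.9 CPM. Rptor, the gene of a subunit of the kinase complex that restrains TFEB, had 322 and 358 CPM against 311 and 249 CPM.

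The authors' deposited tables compare 1 library labelled Pd1cKO-Cx3 with 1 control each, so pairs of them share a library and none has replicates. They mark a gene at p under 0.05 if its log2 fold change is also beyond 1 in either direction. In the authors' deposited table of replicate 2 against Pd1fl/fl replicate 1, 29.6% of the genes listed were marked, and of the 34 only Sgsh. Against Pd1fl/fl replicate 2, the authors' deposited table marked 27.6% of its genes, Ids and Sgsh among the 34. For replicate 3 of the Pd1cKO-Cx3 label, the authors' deposited tables marked 33.2% and 31.6%, with Sgsh against Pd1fl/fl replicate 1 and Gla, Ids and Lamp1 against Pd1fl/fl replicate 2. Sgsh had log2 fold changes of 1.51 and 2.15 against the first control and -1.12 and -0.48 against the second in the authors' deposited tables. Psap had 0.47, 0.51, 0.43 and 0.47 in the same 4 authors' deposited tables, below their fold threshold and with nearly the same value in each. With 1 library a side, p was under 0.05 for 26 to 31 of the 34 genes in the authors' deposited tables. The share of all listed genes at that p was not computed, so this count is no result about the 34.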

How the data were processed

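Each library was RNA of microglia, and the 34 genes and the other gene lists were chosen with earlier results of these data known. The deposited counts are whole reads per gene, and the deposited CPM columns scale them to the library total (largest relative deviation 0.00019), as their values show. The deposited log2 fold change and p-value columns compare 1 library with 1 other, with no tool given in the sources used here. Bowtie2 2.2.3, TopHat2 2.0.12, HTSeq 0.6.0 and the build mm9 are named in the submitters' processing notes. However, 92.1% of the gene identifiers in GENCODE M21 had exactly its GRCm38 position, so coordinates are read as GRCm38. Each library stood in 2 of 4 tables with identical counts, and depth ranged from 14258420 to 15908954.

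The test between the genotype labels was run in edgeR 4.0.16 under R 4.3.3 (TMM factors, filterByExpr, quasi-likelihood test, Benjamini-Hochberg adjustment at 0.05 over 15097 genes), and the scripts were tested on simulated data. DESeq2 1.42.0, other factors and filters, and leaving out each library were alternatives. CPM values use library totals. Values are given per library for genes with an unadjusted p under 0.05, for the most and least abundant and for X-linked members, and for the 3 genes of each further role with the smallest p, of which 1 is not reported here. Promoter windows come from RefSeq (GRCm38.p6).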

Additional observations from a re-analysis of the deposited data

How the results depend on the processing

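Over all genes, edgeR called 6 at an adjusted p under 0.05, 32 with no filter on low counts and 32 with a minimum of 5 CPM in 2 libraries. DESeq2 called 233, and edgeR called 4 to 21 without a library. Of the 34 lysosomal genes, 1 was called with no filter and 1 with the minimum of 5 CPM, Psap in both, and 5 were called by DESeq2. The number with an unadjusted p under 0.05 was 7 to 10 in all alternatives, and the same 10 in those that kept all 4 libraries. Gaa met it, higher, without Pd1fl/fl replicate 1, and Atp6v1a, lower, without Pd1fl/fl replicate 2. The median log2 fold change of the 34 was 0.0686 to 0.23 without a library. With upper-quartile factors that of Sgsh was -0.0168. Without a library the log2 fold change took both signs for 12 of the 34, from -0.77 to 1.85 for Sgsh, -0.31 to 0.22 for Galc, -0.0836 to 0.0290 for Ppt1, -0.47 to 0.14 for Atp6v1a, -0.0933 to 0.30 for Cd63 and -0.97 to 0.56 for Gla. It ran from -0.0492 to 0.37 for Neu1, -0.16 to 0.0498 for Asah1, -0.0087 to 0.0600 for Lipa, -0.0750 to 0.48 for Gaa, -0.29 to 0.0679 for Idua and -0.12 to 0.33 for Atp6v0d1. The 10 genes with an unadjusted p under 0.05 are not among these. The cause was not tested. In fits without a library the lone library of a group is assumed to vary like the other group. The further lysosomal genes named kept their direction in each alternative. No paired analysis was possible because the groups share only replicate number 2. A planned search of protein sequences was not run.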
